A study of Homo sapiens with 95 samples.

Results

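The clustered histone genes are the replication-dependent histone genes that lie together in the HIST1 cluster on chromosome 6, the HIST2 and HIST3 clusters on chromosome 1 and at the single HIST4 locus on chromosome 12. They were taken by symbol, as every gene listed under HIST1H to HIST4H with a mean of at least 1 counted read over the 95 libraries. This gave 62 of the 74 such symbols listed, out of 14407 genes of the 27978 listed that reached the same mean. By class they were 5 genes of the linker histone H1, 14 of H2A, 19 of H2B, 12 of H3 and 12 of H4. By cluster they were 51 HIST1 genes, 8 HIST2 genes, 2 HIST3 genes and 1 HIST4 gene. The other 12 symbols stayed under the mean and were not tested. Newer annotations give these genes other symbols, such as H1-5 for HIST1H1B.

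Copies of H2A, H2B, H3 and H4 join into the protein core around which DNA is wrapped, and H1 binds the linker between cores. Because new chromatin is needed when DNA is copied, the mRNAs of these genes accumulate in S phase and are degraded when replication stops. They are the metazoan mRNAs that end in a conserved stem-loop in place of a poly(A) tail, a structure bound by the stem-loop binding protein SLBP, and their transcription needs the coactivator NPAT. Libraries selected on poly(A) therefore largely miss them, whereas a method that removes ribosomal RNA, as used here, can count them.

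The cells were AALE, an immortalized line of human bronchial epithelium, profiled by sparse full length sequencing (SFL), in which barcoded libraries are pooled and ribosomal RNA is depleted. All cells carried 1 of 8 perturbations. FAT1 and CDKN2A had been knocked out by CRISPR, and their control, GFP, received the Cas9-EGFP plasmid with no guide. NRF2 (the gene NFE2L2), FGFR1, NRG1 and PIK3CA were overexpressed, and their control, HCRED, carried the reporter vector without an insert. Each of the 8 lines was exposed in 24-well plates to the vehicle DMSO, to CSC (cigarette smoke condensate, 24 μg/ml), to BaP (benzo(a)pyrene, 173 μM) or to NNK (a nitrosamine of tobacco, 490 μM). Of the 32 combinations, 31 had 3 libraries and the FGFR1 line under CSC had 2. The exposure time and whether the knockout lines were clones are not given in the sources used here. The study calls the libraries of a combination biological replicates, and the labels do not say whether they came from separate cultures. Each genotype is 1 line, so p-values measure the spread between these libraries, which may be technical.

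Counted reads ranged from 287446 to 2116383 per library with a median of 934235. The median was 1051107 under DMSO, 825587 under CSC, 836087 under BaP and 753702 under NNK. The perturbed gene differed from its control in the labelled direction in each line, with log2 fold changes of -1.82 for FAT1, -1.17 for CDKN2A, 2.74 for NFE2L2, 4.53 for FGFR1, 8.26 for NRG1 and 2.64 for PIK3CA. The summed level of 7 epithelial markers was between 3734 and 11420 CPM, the library-size scaled unit of level used here. The 3 endothelial markers summed to at most 4.02 CPM and the 2 ciliated cell markers to at most 5.74 CPM. In bulk RNA, fewer cells of a type and less RNA per cell cannot be told apart.

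The 3′ ends show what the genes of a class share. A stem-loop of 16 bases was searched near the annotated ends of the 59 genes that matched a gene model, with a fully paired stem and a loop that begins with T. It was found in 41 of them. The sequences that follow are at least 1 gene per class, chosen as genes at high level or with large changes in the results, on GRCh37 and on the strand of the gene, with the stem-loop in capitals.
HIST1H1B: cccaaaGGCTCTTTTCAGAGCCaccca
HIST2H2AC: accaaaGGCTCTTTTTAGAGCCaccca
HIST1H2BK: cccaaaGGCTCTTTTAAGAGCCactta
HIST1H3B: cccaaaGGCTCTTTTCAGAGCCaccca
HIST1H4C: cccaaaGGCCCTTTTCAGGGCCgctca
HIST1H4D: accaacGGCCCTTTTCAGGGCCaccta
They lie at chr6:27834570-27834596 on the minus strand for HIST1H1B, chr1:149858935-149858961 on the plus strand for HIST2H2AC and chr6:27114140-27114166 on the minus strand for HIST1H2BK. HIST1H3B has it at chr6:26031820-26031846 on the minus strand, HIST1H4C at chr6:26104539-26104565 on the plus strand and HIST1H4D at chr6:26188938-26188964 on the minus strand.

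The stem told H4 apart from the other classes. All 8 H4 genes with a match had a stem that begins GGCCC, and none of the matched genes of other classes had it. The most frequent form, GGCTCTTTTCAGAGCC, was found in 28 genes, and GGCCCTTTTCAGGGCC in 6. A further 4 genes had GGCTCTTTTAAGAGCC, 2 had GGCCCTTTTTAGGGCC and 1 had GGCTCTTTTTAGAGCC. The 18 genes without a match include HIST4H4 and HIST2H2BE, and the absence says only that these letters were not in the window searched.

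Promoters are shown for the H1 gene and the H4 gene that moved in opposite directions under CSC, and for an H2A gene that starts next to an H2B gene. The windows are from RefSeq on GRCh38.p14 and run from 250 bases before to 50 after the start, on the strand of the gene. Capitals mark CCAAT, the box bound by NF-Y, and the TATA box, searched as TATAAA. They also mark ATTTGCAT, the octamer bound by POU2F1, and a box known from H1 promoters, searched as AAACACA. Each was searched on both strands.
HIST1H1B: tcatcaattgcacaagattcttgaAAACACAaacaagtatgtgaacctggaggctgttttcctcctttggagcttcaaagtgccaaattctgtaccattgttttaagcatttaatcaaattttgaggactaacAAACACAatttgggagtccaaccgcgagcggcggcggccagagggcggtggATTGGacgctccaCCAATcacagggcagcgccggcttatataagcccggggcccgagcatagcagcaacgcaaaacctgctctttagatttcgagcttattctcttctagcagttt
HIST1H4D: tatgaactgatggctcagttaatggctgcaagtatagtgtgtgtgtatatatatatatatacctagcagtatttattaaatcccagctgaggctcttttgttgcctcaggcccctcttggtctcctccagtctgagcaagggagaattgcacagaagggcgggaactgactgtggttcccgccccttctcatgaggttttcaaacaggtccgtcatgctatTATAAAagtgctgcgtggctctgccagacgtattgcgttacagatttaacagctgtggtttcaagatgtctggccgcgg
HIST1H2AC: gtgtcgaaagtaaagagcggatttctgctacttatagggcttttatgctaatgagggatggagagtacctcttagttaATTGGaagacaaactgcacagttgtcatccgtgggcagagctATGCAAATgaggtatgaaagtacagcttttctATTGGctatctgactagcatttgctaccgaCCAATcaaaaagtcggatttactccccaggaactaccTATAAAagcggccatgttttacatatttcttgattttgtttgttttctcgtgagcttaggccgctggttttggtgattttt
HIST1H1B is at chr6:27867539-27867838 on the minus strand, HIST1H4D at chr6:26189063-26189362 on the minus strand and HIST1H2AC at chr6:26123922-26124221 on the plus strand.

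A RefSeq window was found for 51 of the 62 genes. TATAAA was in 66.7% of them and in 11.5% of all 35116 promoter windows, and CCAAT in 88.2% against 34.6%. CCAAT was in all 5 H1, all 13 H2A, all 15 H2B and all 10 H3 windows but in 2 of 8 H4 windows. ATTTGCAT was in 41.2% of the windows against 1.77% of all, in 10 of 13 H2A and 11 of 15 H2B windows and in none of the other classes. Windows of neighbouring H2A and H2B genes overlap, so these are not separate occurrences. AAACACA was in all 5 H1 windows, in 1 H2A window and in no other, which is 11.8% against 5.64% of all.

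The clustered histone genes together took a median of 0.741% of counted reads, from 0.394% in the lowest library to 1.124% in the highest. By line the mean share was lowest in CDKN2A cells (0.513% ± 0.0904, SD, n = 12) and in FAT1 cells (0.586% ± 0.0989, n = 12), against 0.686% ± 0.0776 in GFP cells (n = 12). Among the overexpressing lines it was highest in PIK3CA cells (0.897% ± 0.0896, n = 12), against 0.739% ± 0.0698 in HCRED cells (n = 12). NRF2 (0.798%), FGFR1 (0.755%) and NRG1 (0.785%) cells lay between these values. H1 took 0.207% of reads in the median library from 5 genes, and H4 took 0.0825% from 12.

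**Figure D1:**
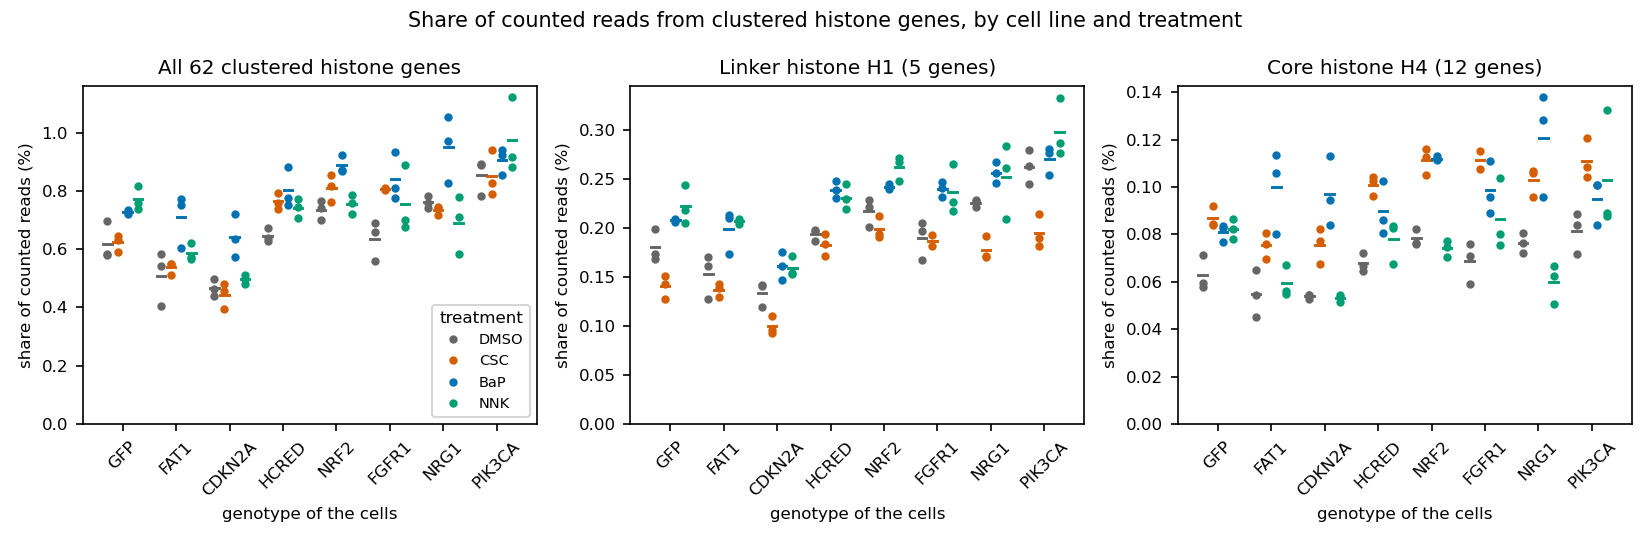
Share of counted reads (%) taken by all 62 clustered histone genes, by the 5 H1 genes and by the 12 H4 genes, with 1 point per library, bars at the mean of a combination, lines on the horizontal axis and treatments in colour. H1 shares under CSC (orange) sit under those under DMSO (grey) in most lines while H4 shares under CSC sit above them, and the CDKN2A line has the lowest total.

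Per kilobase of gene model, 3 of the 5 H1 genes led. The lengths are those of GENCODE models, whereas reads were counted in RefSeq genes, so values can be off where the models differ. The models of HIST3H2BB and HIST2H2BE have 5002 and 2224 bases, against a median of 484.5 bases in H2B. Over all libraries HIST1H1C reached 955 CPM per kb, HIST1H1E 749 and HIST1H1B 567. The highest core histone genes were HIST1H4C with 419 CPM per kb and HIST1H3B with 411. The other H1 genes stood lower, HIST1H1D at 347 CPM per kb, under HIST1H4D at 362, and HIST1H1A at 61.9. The median gene had 567 CPM per kb in H1, 239 in H2A, 140 in H2B, 270 in H3 and 189 in H4, among the 45 genes with a single-exon model. The models are short, with a median of 776 bases for H1 and 397 bases for H4 against 5237 bases over all genes matched, and their class medians of GC content were 56.1% to 58.6% against 47.5%. HIST2H3A, HIST2H3C, HIST2H4A, HIST2H4B, HIST2H2AA3 and HIST2H2AA4, near-identical copies on chromosome 1, had 0 counts in every library, and HIST2H3D was the one copy tested. How reads that fit several copies were counted is not given in the sources used here, so these zeros do not show that the copies are silent.

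CSC changed the classes in different directions. Of the 62 genes 28 rose and 11 fell (edgeR quasi-likelihood test, Benjamini-Hochberg adjusted p under 0.05), where 26.4% of all genes tested rose and 27.9% fell. The median log2 fold change was 0.17, against -0.01 over all genes tested. With a trend with GC content and length removed, 19 of the 59 genes with a gene model rose and 23 fell, with a median of 0.02. All 5 H1 genes fell and 11 of 12 H4 genes rose. Of the H3 genes 8 of 12 rose and none fell, of the H2B genes 6 of 19 rose and none fell, and of the H2A genes 3 of 14 rose and 6 fell. The class medians ran from -0.28 in H1 over -0.03 in H2A, 0.17 in H2B and 0.22 in H3 to 0.47 in H4.

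HIST1H1B, a linker histone gene of dividing cells, had 213, 505 and 746 CPM as lowest, median and highest value in the 24 DMSO libraries, and 151, 368 and 482 CPM in the 23 CSC libraries. The ranges overlap, and the mean was lower under CSC in 8 of 8 lines, and the fitted log2 fold change was -0.49 ± 0.04 (SE, adjusted p = 8.33e-20). HIST1H4D went the other way, from 55.1, 113 and 158 CPM under DMSO to 119, 179 and 258 CPM under CSC. It was higher under CSC in 8 of 8 lines (0.70 ± 0.07, a 1.63-fold rise, adjusted p = 1.47e-17). HIST1H4E rose by 0.61 ± 0.07 and HIST1H3C by 0.51 ± 0.06. HIST2H2BE, an H2B gene that also gives polyadenylated mRNA, rose by 0.54 ± 0.06 and was higher in 8 of 8 lines. Among H2A genes HIST1H2AD had the largest fall (-0.58 ± 0.10) and was singled out after its values were seen.

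The number of H1 reads per H4 read was lower in every CSC library than in any DMSO library, for a pair of classes chosen after the values were seen and described without a test. It was 2.18 to 3.40 with a median of 2.83 in the 24 DMSO libraries and 1.13 to 1.87 with a median of 1.78 in the 23 CSC libraries. No CSC library reached the lowest DMSO library. Under BaP the ratio was 1.55 to 3.03 with a median of 2.30, and under NNK 2.48 to 4.25 with a median of 3.07, both overlapping DMSO and each other, and BaP also overlapped CSC. The CDKN2A line had the lowest ratios under CSC, from 1.13 to 1.42, and the NRG1 line under NNK had the highest of any combination, from 4.15 to 4.25. Among genes with a single-exon model, median GC content was 56.4% in H1 (5 genes) and 56.3% in H4 (9 genes). Their median lengths were 776 and 397 bases. The ratio used all tested H4 genes, including HIST4H4 (47.6% GC), HIST1H4H (43.8% GC) and HIST1H4F, which has no matched model. The part of GC content and length in the ratio was not tested.

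Under BaP the H3 and H4 genes rose, and part of the H2A and H2B genes, with an H2A median of 0.15 that turned to -0.11 once a trend with GC content and length was removed. Of the 62 genes 41 rose and 3 fell, where 24.9% of all genes tested rose and 26.3% fell, and the median log2 fold change was 0.23 against -0.01 over all genes. With the trend removed 26 of 59 rose and 10 fell. All 12 H4 genes rose with a median of 0.51, as did 10 of 12 H3 genes with a median of 0.33. In H2A 8 of 14 rose and 1 fell, in H2B 9 of 19 rose and 1 fell, and in H1 2 of 5 rose and 1 fell. HIST1H3B had 85.3, 164 and 262 CPM as lowest, median and highest value under DMSO and 115, 237 and 359 CPM under BaP. The groups overlap across lines, and HIST1H3B was higher under BaP in 8 of 8 lines (0.53 ± 0.06, adjusted p = 5.75e-16). HIST1H4D rose by 0.67 ± 0.07, HIST1H3I by 0.63 ± 0.06 and HIST2H2AC by 0.50 ± 0.05.

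The H1 genes parted under BaP. HIST1H1E, with 311, 491 and 686 CPM under DMSO and 441, 678 and 852 CPM under BaP, rose by 0.44 ± 0.04 and was higher in 8 of 8 lines. HIST1H1A, with 9.82, 45.9 and 145 CPM under DMSO and 7.55, 37.3 and 103 CPM under BaP, fell by 0.45 ± 0.08 on the log2 scale and was lower in 8 of 8 lines. HIST1H1A was also lower in 8 of 8 lines under CSC (-0.43 ± 0.08) and under NNK (-0.44 ± 0.08), the only H1 gene lower under all 3 chemicals.

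NNK moved fewer of these genes. Of the 62, 15 rose and 10 fell, where 24.8% of all genes tested rose and 26.8% fell, so neither share stood above the background. The median was 0.06 against -0.02 over all genes. With the trend removed 11 of 59 rose and 15 fell. In H3 6 of 12 rose and none fell, in H1 3 of 5 rose and 1 fell, in H4 4 of 12 rose and 1 fell, in H2A 1 of 14 rose and 2 fell, and in H2B 1 of 19 rose and 6 fell. HIST1H1E had 452, 751 and 987 CPM under NNK as lowest, median and highest value, against 311, 491 and 686 CPM under DMSO. It was higher in 8 of 8 lines, by 0.57 ± 0.04 (a 1.49-fold rise, adjusted p = 8.54e-33). HIST1H3B rose by 0.38 ± 0.06 and HIST1H1C by 0.21 ± 0.04. The median over the 62 genes within a line ran from -0.26 in the NRG1 line, where 52 were lower, to 0.26 in the GFP line, where 47 were higher. Of all genes tested 7312 were higher and 7088 lower in the NRG1 line, and 6893 higher and 7463 lower in the GFP line. These medians and counts carry no test, and the test of the NNK effect by line called 1 of the 62 genes.

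**Figure D2:**
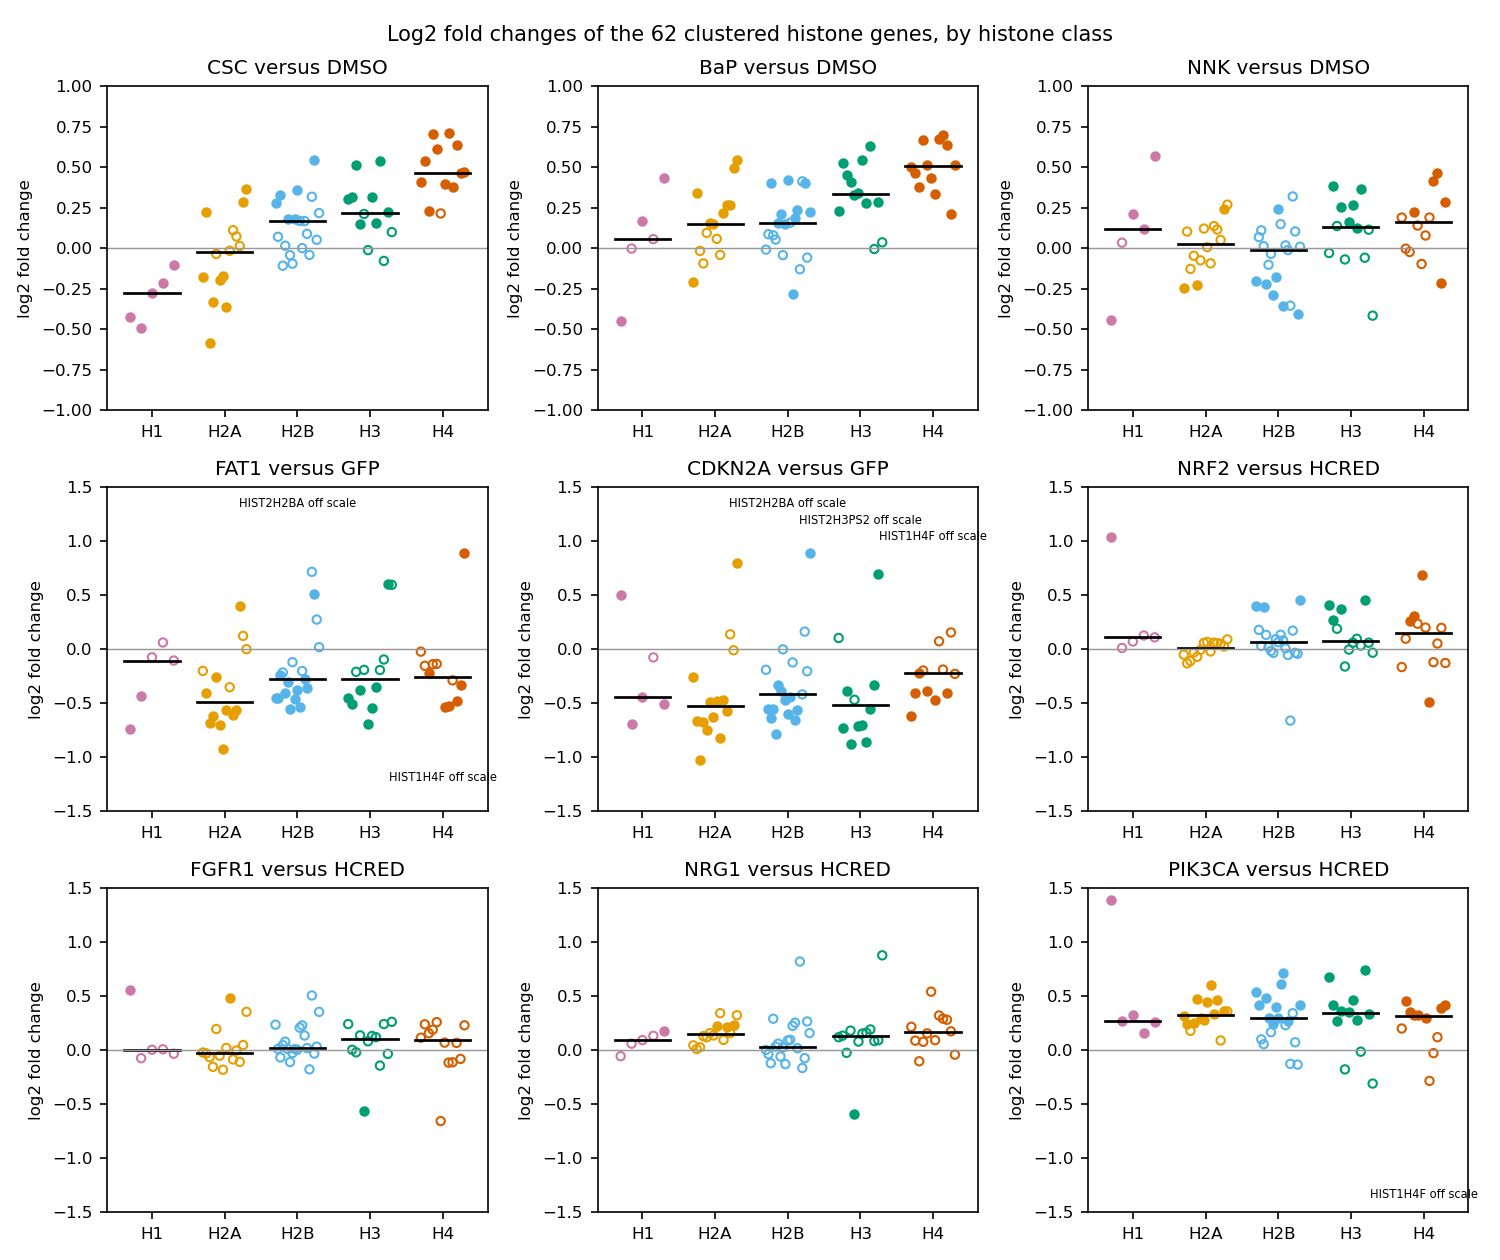
Log2 fold change of each clustered histone gene in the 9 comparisons, by class on the horizontal axis, with filled points past an adjusted p of 0.05, open points not past it and a black bar at the class median, and with HIST2H2BA, HIST2H3PS2 and HIST1H4F, genes of few counts, named where they fall off the scale. Under CSC the class medians rise from -0.28 in H1 to 0.47 in H4, most points lie below 0 in FAT1 and CDKN2A, and most lie above 0 in PIK3CA.

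The chemical effects depended on whether a trend with GC content and length was removed. Among the 59 genes with a gene model, 30 rose and 11 fell under CSC without the correction, and 19 rose and 23 fell with it. Under BaP the split went from 39 and 3 to 26 and 10, and under NNK from 15 and 9 to 11 and 15. Over the 13903 genes in these fits, the share called in either direction went from 55.6% to 34.4% under CSC, from 52.5% to 25.7% under BaP and from 52.9% to 20.2% under NNK. The H4 and H1 classes kept their order under CSC, with 8 of 11 H4 genes higher and none lower (median 0.29) and 5 of 5 H1 genes lower (median -0.47) after correction. The H2A genes went from 3 higher and 6 lower to 1 higher and 11 lower, and the H3 genes from 8 higher and none lower to 4 higher and 3 lower. HIST1H1B was then at -0.72 and HIST1H4D at 0.49 under CSC.

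**Figure D3:**
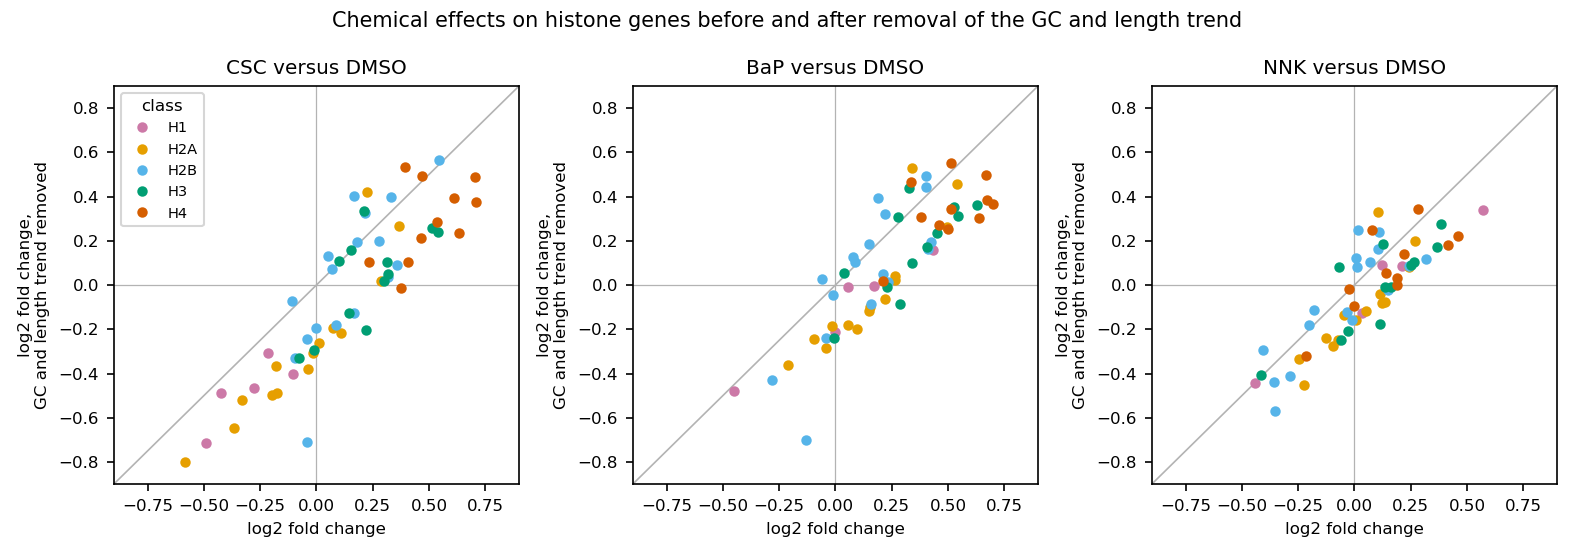
Log2 fold change of 59 clustered histone genes under CSC, BaP and NNK without (horizontal) and with (vertical) removal of the GC and length trend, coloured by class, with the diagonal where both are equal. Most points lie under the diagonal, H4 genes under CSC stay above or near 0 and the 5 H1 genes under CSC stay below it.

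Other RNAs moved with the chemicals. Of 7 tested RNAs that also lack a poly(A) tail, such as RMRP, the RNA of a ribonuclease complex, all 7 rose under CSC, 6 under BaP and 4 under NNK, where 2 fell. Summed over the 8 such RNAs among the genes listed, tested or not, the level was 2754 to 4819 CPM under DMSO. The sum was 6799 to 9720 CPM under CSC, 5304 to 11350 CPM under BaP and 3004 to 7316 CPM under NNK. CSC and BaP thus did not overlap DMSO. Of 6 clustered histone genes known to give polyadenylated mRNA too (HIST1H1C, HIST1H2AC, HIST1H2BC, HIST1H2BD, HIST1H2BK and HIST2H2BE), 4 rose and 1 fell under CSC and 5 rose under BaP. Among markers of other cells, CD68 rose by 1.04 under CSC and by 0.34 under BaP, and was at 0.19 under NNK, where it did not pass the test. COL1A1 rose by 0.90, 0.80 and 0.73 under CSC, BaP and NNK. Of the 7 epithelial markers 5 fell and 1 rose under CSC, 6 fell and 1 rose under BaP, and 2 fell and 3 rose under NNK. The leukocyte list summed to 4.70 to 17.0 CPM under DMSO, 3.47 to 37.6 CPM under CSC, 0 to 32.1 CPM under BaP and 2.74 to 22.8 CPM under NNK, with CD3E at 0 in every library and PTPRC at 0 in every CSC library. The 4 fibroblast markers summed to 5.41 to 34.4 CPM under DMSO, 12.5 to 56.7 CPM under CSC, 10.01 to 66.8 CPM under BaP and 9.97 to 51.4 CPM under NNK, with LUM at 0 in every CSC library. The part of depth, of these RNAs and of these markers in the histone results was not tested.

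Most genes of the histone pathway and of mitosis that passed the test fell under the chemicals. Over all genes tested 27.9%, 26.3% and 26.8% fell under CSC, BaP and NNK, and 26.4%, 24.9% and 24.8% rose. The calls of these and the other gene lists come from the fit without removal of the GC and length trend. Their dependence on that trend was not tested. Of 15 mitosis genes 13 fell under CSC, 13 under BaP and 12 under NNK, and none rose. CENPF, a centromere protein, fell by 0.78, 0.58 and 0.50 on the log2 scale. Of 26 S phase genes 7 rose and 13 fell under CSC, 6 rose and 13 fell under BaP, and 7 rose and 10 fell under NNK. Of 17 factors that transcribe, process or degrade histone mRNA, 10 fell and 2 rose under CSC, 11 fell and 3 rose under BaP, and 9 fell and 3 rose under NNK. SLBP was at -0.25 ± 0.05, -0.18 ± 0.05 and -0.21 ± 0.05, and NPAT at -0.29 ± 0.05, -0.22 ± 0.05 and -0.31 ± 0.05, each past the threshold. Of 13 histone chaperones and assembly factors 10 fell and 2 rose under CSC, with NASP, a carrier of soluble H3 and H4, at -0.56. Among 11 replication-independent variants 2 rose and 4 fell under CSC and 5 rose and 3 fell under BaP and likewise under NNK, with H1FX higher under all 3 chemicals (0.44, 0.61 and 0.58).

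In the line with knockout of FAT1, the gene of a large cadherin, HIST1 genes were lower. Of the 62 genes 34 fell and 5 rose against GFP, where 23.7% of all genes tested fell and 24.1% rose, and the median was -0.30 against 0.02 over all genes. The clusters parted, with 34 of 51 HIST1 genes lower and none higher, and 4 of 8 HIST2 genes higher and none lower. HIST1H2AI, an H2A gene, had 52.5, 78.3 and 114 CPM as lowest, median and highest value in the 12 FAT1 libraries against 109, 134 and 228 CPM in the 12 GFP libraries. The ranges barely met, and the difference was -0.92 ± 0.09 (adjusted p = 9.78e-17), lower under each of the 4 treatments. HIST1H2AE, from 64.5 to 112 CPM in FAT1 cells and from 119 to 177 CPM in GFP cells, did not overlap and fell by 0.62 ± 0.08 on the log2 scale. HIST1H3F fell by 0.69 ± 0.08 and HIST1H2AH by 0.70 ± 0.09.

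The genes that rose in FAT1 cells lie outside HIST1. HIST4H4 on chromosome 12, an H4 gene, had 46.8, 74.3 and 138 CPM in FAT1 cells and 21.7, 41.1 and 57.3 CPM in GFP cells as lowest, median and highest value. The ranges overlap in part, and it was higher by 0.89 ± 0.11 (a 1.85-fold difference, adjusted p = 7.99e-13) and under each of the 4 treatments. HIST2H2BE was higher by 0.51 ± 0.08. HIST2H2BA, a pseudogene, passed the test with 35 counts in all 12 FAT1 libraries against 2 in the 12 GFP libraries, too few for a fold change. HIST1H4F, with 26 reads in FAT1 cells and 115 in GFP cells, ranged from 0 to 5.19 CPM against 5.74 to 20.5 CPM and did not overlap.

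The line with knockout of CDKN2A, the gene of the cell cycle inhibitors p16 and p14ARF, had the lowest mean share of histone reads. Of the 62 genes 39 fell and 7 rose against GFP, where 28.8% of all genes tested fell and 28.7% rose, and the median was -0.43 against -0.01 over all genes. In the HIST1 cluster 39 of 51 fell and 2 rose. Of the HIST2 genes 3 of 8 (37.5%) rose and none fell, a share near that of all genes. Their median was 0.15, with 5 positive and 3 negative values, and HIST2H2BA and HIST2H3PS2, which rose, have few counts. Both HIST3 genes rose. HIST1H3H, an H3 gene, had 67.7, 86.8 and 112 CPM as lowest, median and highest value in CDKN2A cells against 124, 166 and 209 CPM in GFP cells. The groups did not overlap, and the difference was -0.86 ± 0.08 (adjusted p = 2.57e-18). HIST1H1B had 151, 284 and 329 CPM in CDKN2A cells against 268, 424 and 561 CPM in GFP cells, lower by 0.69 ± 0.07 on the log2 scale and under each of the 4 treatments. HIST1H3D was at -0.88 ± 0.09, HIST1H2AE at -0.68 ± 0.08 and HIST1H1E at -0.51 ± 0.05.

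Only HIST1H1A and HIST1H4F rose within HIST1 in CDKN2A cells. HIST1H1A had 23.9, 34.3 and 51.1 CPM against 15.3, 22.9 and 41.8 CPM in GFP cells, higher by 0.50 ± 0.14 with overlapping ranges. HIST1H4F had 19.9, 29.7 and 49.0 CPM against 5.74, 9.64 and 20.5 CPM, higher by 1.56 ± 0.18 (adjusted p = 4.11e-14), with ranges that overlap narrowly. HIST3H2BB and HIST3H2A, a divergent pair on chromosome 1 named after their values were seen, rose together by 0.89 and 0.80. HIST2H2BA passed the test with 26 reads in CDKN2A cells against 2 in GFP cells, and HIST2H3PS2 with 71 reads against 9.

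**Figure D4:**
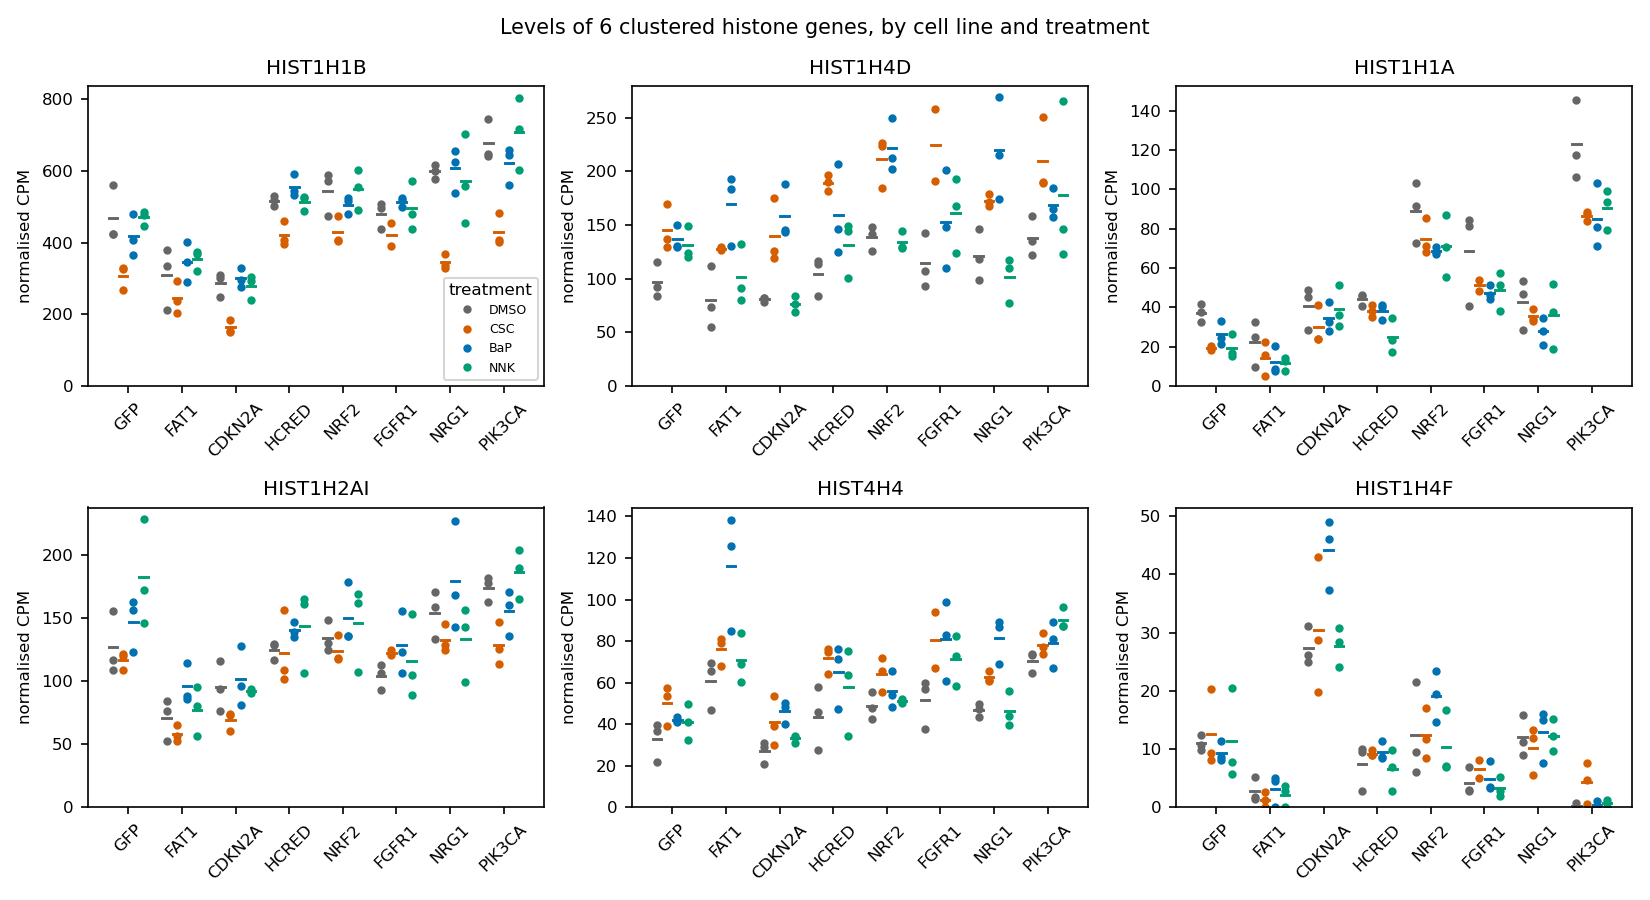
Levels in CPM with TMM library sizes of 6 clustered histone genes in each line (horizontal axis) and treatment (colour), with 1 point per library and bars at the mean of a combination. HIST1H1B is lower under CSC in each line and HIST1H4D higher, HIST1H1A stands highest in PIK3CA cells, HIST1H2AI lowest in FAT1 cells and HIST4H4 highest in FAT1 cells under BaP, and HIST1H4F is near 0 in PIK3CA cells.

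Both knockouts were compared with the same GFP libraries, so their values are given side by side and not as separate evidence. The class medians were -0.10 and -0.44 for H1, -0.48 and -0.53 for H2A, -0.28 and -0.42 for H2B, -0.28 and -0.51 for H3 and -0.25 and -0.22 for H4 in FAT1 and CDKN2A cells. With the GC and length trend removed 34 of 59 genes fell and 6 rose in FAT1 cells, and 40 fell and 6 rose in CDKN2A cells, where 50.5% and 58.7% of all genes in those fits were called in either direction. Within treatments the FAT1 median was -0.34 under DMSO, -0.32 under CSC, -0.12 under BaP and -0.50 under NNK. The CDKN2A median was -0.40, -0.59, -0.07 and -0.64 in the same order. Under BaP 8 of 12 H4 genes had positive values against GFP in either line, a count without a test.

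Of the 26 S phase genes 16 fell and 2 rose in FAT1 cells and 14 fell and 6 rose in CDKN2A cells, and of the 15 mitosis genes 9 fell and 3 rose and 12 fell and none rose. SLBP was at -0.53 ± 0.07 in FAT1 cells and at 0.13 ± 0.06 in CDKN2A cells, where it did not pass the threshold (adjusted p = 0.0643). Of the 13 histone chaperones 8 fell in each line, and 2 and 4 rose. More replication-independent variants rose than fell, with 5 of 11 higher and 2 lower in FAT1 cells and 7 higher and 2 lower in CDKN2A cells. H1F0, the linker histone of resting cells, was higher by 1.27 ± 0.08 and 1.70 ± 0.07. It had the largest rise of the 11 in both lines and was named after its values were seen. The lowest values among the 11 were -0.29 and -0.67. H3F3B, a gene for the variant H3.3, was higher by 0.43 ± 0.05 and 0.40 ± 0.05. H2AFX, the H2A variant phosphorylated at DNA breaks, was higher by 1.001 ± 0.09 in CDKN2A cells, and H2AFZ, a variant of transcribed chromatin, by 0.71 ± 0.05. Of the 7 epithelial markers 5 fell and 1 rose in FAT1 cells and 4 fell and 2 rose in CDKN2A cells. COL1A1 was higher by 0.40 and 0.63, and CD68 by 0.62 in CDKN2A cells, and their part in the result was not tested.

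In the line that overexpresses PIK3CA, the catalytic subunit of PI3-kinase, most of the genes were higher. Of the 62 genes 43 rose and 1 fell against HCRED, where 14.4% of all genes tested rose and 13.0% fell, and the median was 0.31 against -0.0014 over all genes. All 5 H1 genes, 11 of 14 H2A genes, 11 of 19 H2B genes, 9 of 12 H3 genes and 7 of 12 H4 genes rose. HIST1H1A had 71.1, 90.9 and 145 CPM as lowest, median and highest value in PIK3CA cells against 17.0, 39.1 and 46.1 CPM in HCRED cells. The groups did not overlap, and the difference of 1.38 ± 0.10 (a 2.61-fold rise, adjusted p = 1.85e-25) was positive under each treatment. HIST1H3J, from 137 to 202 CPM in PIK3CA cells and from 75.8 to 122 CPM in HCRED cells, did not overlap either and rose by 0.74 ± 0.09. HIST1H2BM rose by 0.72 ± 0.10 and HIST1H3A by 0.68 ± 0.09.

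The exception was HIST1H4F, an H4 gene with no match in the annotation used, which had 17 reads in all 12 PIK3CA libraries and 102 in the 12 HCRED libraries. Its levels were 0, 0.652 and 7.61 CPM as lowest, median and highest value against 2.74, 8.98 and 11.5 CPM, and the difference passed the test (-2.55 ± 0.34, adjusted p = 1.08e-10). Levels in the PIK3CA line overlapped those of HCRED in the highest library. The median over the 62 genes was 0.43 under DMSO, 0.15 under CSC, 0.18 under BaP and 0.46 under NNK. Of the S phase genes 12 of 26 rose and 2 fell, and of the mitosis genes 7 of 15 rose and none fell. Of the 11 replication-independent variants 4 rose and 2 fell. H1F0, named after its values were seen, had the lowest value among them (-0.69 ± 0.07). SLBP rose by 0.26 ± 0.06 and NPAT by 0.26 ± 0.07. COL1A1 fell by 0.9997 on the log2 scale and CD68 rose by 0.71 in PIK3CA cells, and 6 of 7 epithelial markers fell and 1 rose. Their part in the result was not tested.

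In the line that overexpresses NRF2, the regulator of the oxidative stress response, 11 of the 62 genes rose and 1 fell, where 9.65% of all genes tested rose and 11.7% fell, with a median of 0.06 against -0.0028 over all genes. HIST1H1A had 55.4, 71.0 and 103 CPM as lowest, median and highest value against 17.0, 39.1 and 46.1 CPM in HCRED cells. The ranges did not overlap and the difference was 1.04 ± 0.11 (a 2.05-fold rise, adjusted p = 1.05e-14). HIST1H3J rose by 0.45 ± 0.09, HIST1H3A by 0.41 ± 0.09 and HIST1H3D by 0.37 ± 0.08. The median was 0.20 under DMSO, 0.01 under CSC, 0.14 under BaP and 0.02 under NNK. SLBP rose by 0.37 ± 0.07.

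FGFR1 and NRG1 overexpression left most genes under the threshold. In FGFR1 cells 2 of 62 rose and 1 fell, where 6.62% of all genes tested rose and 6.6% fell, and in NRG1 cells 4 rose and 1 fell, where 6.03% rose and 5.84% fell. The medians were 0.02 and 0.12, against -0.0036 and -0.0042 over all genes. In FGFR1 cells HIST1H1A had 38.2, 51.2 and 84.6 CPM as lowest, median and highest value, overlapping the 17.0 to 46.1 CPM of HCRED cells, and was higher by 0.56 ± 0.12 (adjusted p = 0.000175). HIST1H2AK rose by 0.49 ± 0.15 and HIST1H3E fell by 0.56 ± 0.19 on the log2 scale. In NRG1 cells all 14 H2A genes had positive values and 3 passed the test, among them HIST2H2AC (0.23 ± 0.07). HIST1H1E rose by 0.18 ± 0.05 and HIST1H3E fell by 0.59 ± 0.19 on the log2 scale. The NRG1 median of the 62 genes was 0.27 under DMSO and 0.36 under BaP but -0.14 under CSC and -0.15 under NNK, and was described without a test. The 4 overexpressing lines share the HCRED libraries.

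The levels of HIST1H1A over all 8 lines had medians of 13.4 CPM in FAT1, 22.9 in GFP, 34.3 in both NRG1 and CDKN2A, 39.1 in HCRED, 51.2 in FGFR1, 71.0 in NRF2 and 90.9 in PIK3CA cells. Against HCRED the NRG1 line did not pass the threshold (-0.06 ± 0.13, adjusted p = 0.857). Of the 62 genes 61 passed the threshold in at least 1 of the 9 comparisons. The share of all genes that did so was not counted, so this number has no background to compare with. In CDKN2A cells alone 28.7% of all genes tested rose and 28.8% fell. HIST2H2BC, with a mean of 1.65 counts per library, was the 1 that passed in none.

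H2A and H2B genes often lie head to head and start from a shared region. Among the genes matched, 9 such pairs had starts 170 to 251 bases apart. Under CSC the H2B gene had the higher fold change in 7 of 9 pairs, with a median difference of 0.22. HIST1H2BK was at 0.36 where its partner HIST1H2AH was at -0.20. After the GC and length trend was removed it was 8 of 9, with a median of 0.45. The pair HIST1H2BN and HIST1H2AK, with models of 4265 and 496 bases, went from 0.18 to 0.71. HIST1H2BO and HIST1H2AM, with 467 and 487 bases, went from 0.0164 to 0.0176. HIST1H2BC and HIST1H2AC went from -0.15 to -0.35. The part of the gene models in these moves was not tested. In CDKN2A cells the H2B gene was higher in 8 of 9 pairs (median 0.17) and in FAT1 cells in 7 of 9 (median 0.21), whereas in NRG1 cells it was higher in 1 of 9 (median -0.09). In PIK3CA cells it was 5 of 9. These counts are descriptions over pairs and carry no test.

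**Figure D5:**
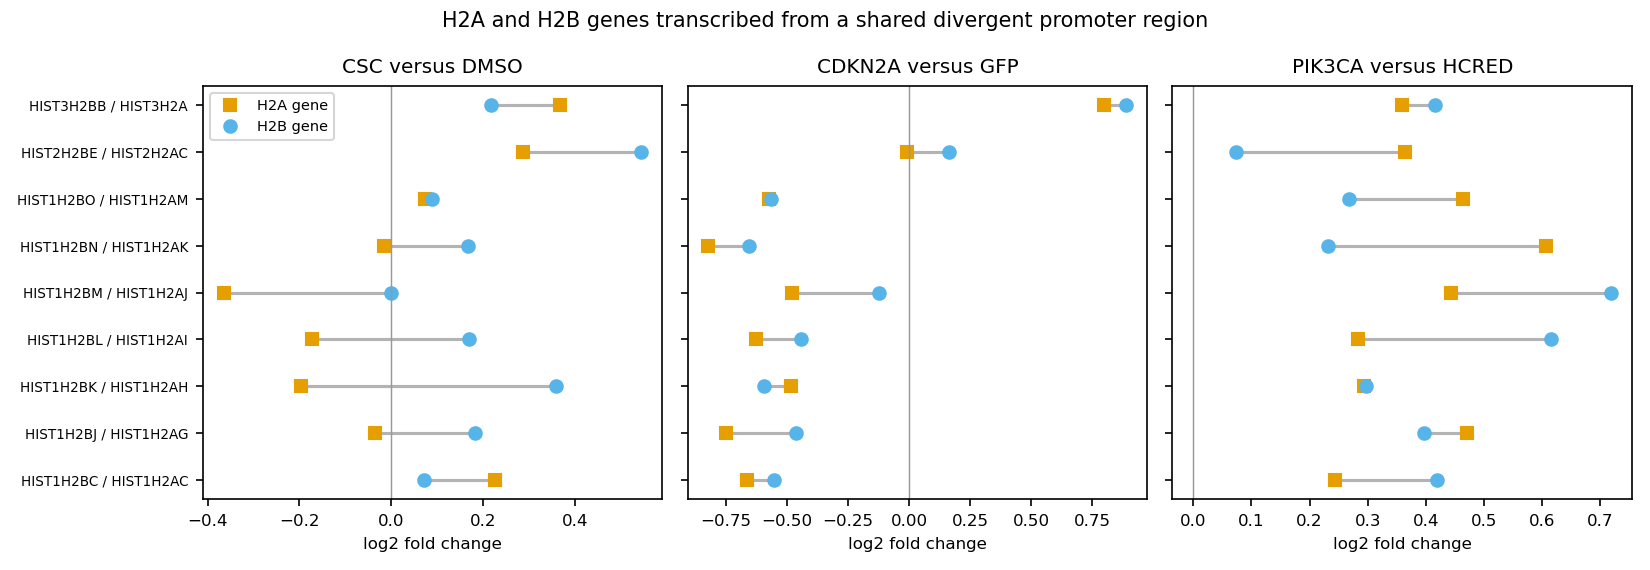
Log2 fold change of the H2A gene (square) and the H2B gene (circle) of 9 head-to-head pairs under CSC, in CDKN2A cells and in PIK3CA cells, with a line joining the partners. The circle lies to the right of the square in 7 pairs under CSC, 8 in CDKN2A cells and 5 in PIK3CA cells, and the HIST3 pair is the one pair well above 0 in CDKN2A cells.

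Whether a chemical acted differently on different lines was tested as an interaction over all lines. For CSC 5 of 62 genes passed the threshold, where 0.618% of all genes tested did, for BaP none did, where 0.416% of all genes did, and for NNK 1 did, where 0.167% of all genes did. At an unadjusted p under 0.05 there were 22, 14 and 22 of these genes by edgeR. The share of all genes at that level was not counted, so these numbers have no background to compare with. At the adjusted threshold limma-voom called 7, 0 and 0. HIST1H1B fell under CSC in each line, from -0.17 in FGFR1 cells to -0.82 in CDKN2A cells (adjusted p = 0.0205). In CDKN2A cells its 3 libraries had 311, 300 and 249 CPM under DMSO and 151, 185 and 154 CPM under CSC, with no overlap. In FGFR1 cells they had 437, 498 and 508 CPM under DMSO and 391 and 454 CPM under CSC, with overlap. HIST1H3B under NNK ranged from -0.05 in CDKN2A cells to 0.76 in FGFR1 cells (adjusted p = 0.0101).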

How the data were processed

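SFL libraries of AALE cells were sequenced as single 75-base reads. Per the labels and the study's methods, the authors trimmed reads with cutadapt 1.12, checked them with FastQC 0.11.5, aligned them to hg19 with STAR 2.5.2b and counted RefSeq genes with featureCounts. The deposited values are raw counts per gene, and the strand setting is not given in the sources used here.

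Counts of genes with a mean of at least 1 were fitted in edgeR 4.0.16 (R 4.3.3) by the quasi-likelihood test with TMM library sizes, as genotype plus chemical over all 95 libraries, and p-values were Benjamini-Hochberg adjusted over 14407 genes at 0.05. This replaced the limma-voom test of the study (limma 3.58.1), which was the first alternative. Others were DESeq2 1.42.0, other scaling and filters, left-out replicates and libraries, a replicate block and a loess fit (span 0.3) on GC content and length over the 13903 genes (96.5%) matched to GENCODE. CPM of single genes used TMM library sizes, and levels summed over a list of genes used the counted reads of the library. Interactions of chemical and genotype were tested over all lines. The fits were tested on simulated data. Each fit without 1 library kept the dispersion trend of all libraries.

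Genes named were the highest member of each class, up to 5 of smallest p per comparison, up to 3 per interaction, the polyadenylated members, near-identical copies, and up to 3 genes of each other list per chemical, with SLBP, NPAT, H2AFZ, H3F3B and the perturbed genes. Genes said to be named or singled out after their values were seen, such as H1F0, lie outside this rule. The members and lists were chosen with earlier results of these data known. Labels number the libraries of a combination as replicates without naming separate cultures, and on average same-numbered libraries did not deviate together.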

Additional observations from a re-analysis of the deposited data

Results flagged for a closer look

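The interaction of chemical and line was tested itself (edgeR quasi-likelihood test, Benjamini-Hochberg adjusted over all genes tested). Of the 62 clustered histone genes 5 passed the threshold for CSC, 0 for BaP and 1 for NNK. Over all genes tested the shares were 0.618%, 0.416% and 0.167%. Under CSC, HIST1H2BG (adjusted p = 0.0175) ranged from -0.42 in CDKN2A cells to 0.64 in FGFR1 cells on the log2 scale. Its CDKN2A libraries had 147, 102 and 130 CPM under DMSO and 123.4, 99.5 and 73.4 CPM under CSC, which overlap. Its FGFR1 libraries had 134, 157 and 166 CPM under DMSO and 262 and 222 CPM under CSC, which do not. HIST1H1B (adjusted p = 0.0205) fell from -0.17 in FGFR1 to -0.82 in CDKN2A cells. HIST1H2AG (adjusted p = 0.0292) ranged from -0.37 in NRG1 to 0.46 in FGFR1 cells, and HIST1H2AM (adjusted p = 0.0383) from -0.33 in CDKN2A to 0.55 in FGFR1 cells. HIST1H3F (adjusted p = 0.0491) ranged from -0.53 in CDKN2A to 0.39 in FGFR1 cells. The FGFR1 line under CSC has 2 libraries.

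Under NNK, HIST1H3B (adjusted p = 0.0101) ranged from -0.05 in CDKN2A to 0.76 in FGFR1 cells. Its FGFR1 libraries had 120, 169 and 151 CPM under DMSO and 207, 201 and 310 CPM under NNK, with no overlap. These calls were not stable, since limma-voom called 7 genes for CSC and 0 for NNK. Without the libraries numbered 1, 2 or 3 the CSC count was 2, 0 or 2 and the NNK count 2, 1 or 0.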

How the results depend on the processing

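For CSC, BaP, NNK, FAT1 and CDKN2A the number of clustered histone genes past the threshold, in both directions together, stayed within 1.5 times under each alternative run. Leaving out 1 library at a time gave 38 to 42, 40 to 46, 23 to 30, 37 to 42 and 44 to 47, and 11 to 15 for NRF2, 1 to 7 for FGFR1, 2 to 7 for NRG1 and 41 to 46 for PIK3CA. The direction was less stable among the 59 genes with a gene model. With the GC and length trend removed, genes higher and lower went from 30 and 11 to 19 and 23 under CSC. They went from 39 and 3 to 26 and 10 under BaP, and from 15 and 9 to 11 and 15 under NNK. FGFR1 (3) had 1 without HCRED BaP replicate 1, 7 without HCRED CSC replicate 2 and 5 without FGFR1 BaP replicate 2 or FGFR1 DMSO replicate 1. NRG1 (5) had 2 without HCRED BaP replicate 1 or NRG1 BaP replicate 3, and 3 without any of HCRED CSC, DMSO or NNK replicate 1, HCRED DMSO replicate 2, NRG1 BaP replicate 2, NRG1 DMSO replicate 3 or NRG1 NNK replicate 1. Without all libraries numbered 1, NRF2 went from 12 to 6, NRG1 to 0, PIK3CA from 44 to 28, and the CSC, BaP and NNK interactions from 5, 0 and 1 to 2, 1 and 2. Without those numbered 2, FGFR1 had 7 and the CSC interaction 0, and without those numbered 3, NRG1 had 3, the CSC interaction 2 and the NNK interaction 0. With DMSO libraries only, NRF2 had 7, FGFR1 1 and NRG1 8. With only the libraries compared, NRF2 had 19 and FGFR1 8, and with no filter FGFR1 had 7. By limma-voom NRG1 had 3 and the NNK interaction 0, by DESeq2 NRG1 had 3, and at a mean count of at least 10 the CSC interaction had 3. With the GC and length trend removed FGFR1 had 11, and 6 called values changed sign: HIST1H1C (-0.0036), HIST1H2AH (-0.10), HIST1H2AI (-0.12) and HIST1H3A (-0.0102) under BaP, HIST1H3D (-0.13) under CSC and HIST1H3F (-0.0069) under NNK. The same genes without the correction, an alternative chosen after seeing the data, changed no sign. The cause of these moves was not tested, and the left-out fits also had fewer libraries. Of 157 called values of named genes, 154 kept their call by limma-voom, 149 by DESeq2, 128 with the trend removed and 157 with the replicate block. The block left the CSC interaction at 6 genes, BaP at 0 and NNK at 1. Deviations of same-numbered libraries from their group means correlated by -0.0146 to 0.0402, as means per comparison and number. The numbers were therefore not taken as pairs. Depth limits genes of few reads, such as HIST2H2BA and HIST1H4F.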
